A study of Homo sapiens with 414 samples.

Results

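The members described here are 92 single cells of H1, a human embryonic stem cell line, out of 183 single cells in the series. The other 91 cells are of H9, a second human embryonic stem cell line. Members were taken by library name, as every H1 library sequenced at 24 libraries per lane, and no measured value entered that choice. All cells were undifferentiated and grown in E8 medium on Matrigel, at passage 20 to 30 for H1 and 25 to 35 for H9. They were caught on a Fluidigm C1 chip, copied to full-length cDNA by the SMARTer method and read from one end over 51 bases. The same indexed cDNA of the H1 cells was read again at 96 libraries per lane, which repeats the sequencing and not the cells. No genotype change, drug or treatment separates the libraries, and the labels give no separate cultures of H1. The 92 cells are therefore 1 sample, and no p-value is given anywhere below.

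Embryonic stem cells can become any cell type of the body, a property called pluripotency. It is held by a small set of transcription factors, among them POU5F1 (OCT4), SOX2 and NANOG, under Nodal and FGF signals. Human lines grown in such media resemble the primed state of the embryo after implantation, and they divide fast with a short first gap phase.

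A cell had a median of 3698610 human counts (lowest 1136300, highest 8096760), where a count is a read assigned to a gene by the authors' expected-count model. At least 1 count was found for a median of 11199.5 genes per cell, with a range of 9608 to 11775 and an SD of 477 over cells. The mitochondrially encoded genes took a median of 5.37% of a cell's counts (0.292% to 32.2%, and 1.47% to 13.3% without the 5 cells described next). Spike-in sequences took 3.74% of all counts (2.15% to 19.7%). The number of genes fell with the spike-in share (Spearman's rho -0.77 over 92 cells) and was little related to the total count (rho -0.13). In 5 cells the spike-in share was 10.8% to 19.7%, and 2 of them had under 1% and 2 over 20% mitochondrial counts. They held 9608 to 10073 genes, against a lowest value of 10020 and a median of 11216 in the other 87 cells. Values below are over all 92 cells. Where leaving out these 5 cells moved a printed level or spread by over 1.5 times, or clearly moved a correlation, the value in the other 87 cells is given too.

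The labelled cell type was checked against its markers, all 5 of which were read in every cell. POU5F1, the OCT4 factor, had 82.2 CPM in the lowest cell, 161 in the median cell and 295.2 in the highest, where CPM is counts per 1000000 human counts of the cell. SOX2, its binding partner, had 7.66, 45.9 and 131 CPM. NANOG, the third factor of the core circuit, had 15.6, 209 and 570.5 CPM, and its lowest cell outside the 5 was at 50.7 CPM. No cell lacked any of the 3, and the lowest cell of NANOG stood further from its median than the lowest cell of POU5F1 did from its own. DNMT3B, a DNA methyltransferase that is high before differentiation, had 382, 1142 and 3713 CPM, and its highest cell outside the 5 was at 1907 CPM. TDGF1 (Cripto), the coreceptor of Nodal, had 688, 2068 and 3444 CPM. Summed over the 92 cells and divided by transcript length, the 5 markers ranked TDGF1 (1404 per 1000000 after that division), DNMT3B (341), NANOG (303), POU5F1 (165) and SOX2 (24.2). The genome holds further near copies of POU5F1 and NANOG, and the counts of both were not whole in 100% and 97.8% of the cells, so reads shared with copies were divided by the model. Their levels are uncertain to that extent.

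**Figure D1:**
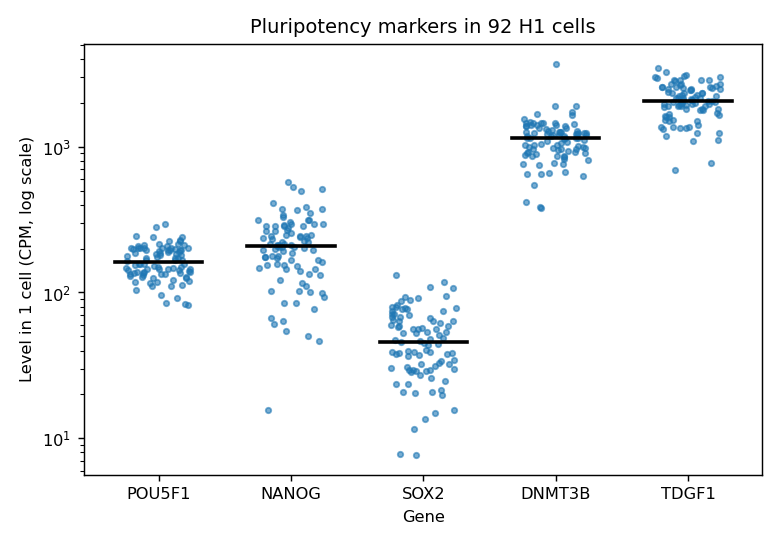
Level of the 5 pluripotency markers in each of the 92 H1 cells, in CPM on a log axis; each point is 1 cell and the bar is the median. All 92 cells lie above 0 for each gene, and POU5F1 spans the narrowest range, from 82.2 to 295.2 CPM.

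Other genes of the pluripotent programme were read at widely differing levels. Of 12 core pluripotency factors, 8 were read in every cell, as were 17 of 19 pluripotency RNA-binding and chromatin genes. L1TD1, an RNA-binding protein of stem cells, was at 2118 CPM over all cells, with 1041 in the lowest and 4242 in the highest cell. LIN28A, which blocks let-7 microRNA maturation, was at 578 CPM (155 to 984 over cells). TERF1, a telomere-binding protein, was at 1688 CPM, and DPPA4, a chromatin factor of early embryos, at 829 CPM. Its paralogue and partner DPPA2 was at 6.6 CPM and had a count in 42 of 92 cells. FOXD3, a forkhead factor, was at 4.10 CPM and had a count in 80 cells. UTF1, a chromatin protein named as a stem cell marker, was at 0.0690 CPM with counts in 8 cells. Genes of the naive state, which precedes implantation, were low: of 13, ARGFX alone reached 10 CPM (59.02), and ARGFX is one of the genes with mostly non-whole counts described at the end. KLF4 was at 2.05 CPM (39 cells), DPPA3 at 3.72 (51 cells), ESRRB had a count in 1 cell, and DNMT3L had a count in none. With 92 cells, a count of 0 allows a share of up to 3.26% of cells with a count, and the limit for the summed level is 0.00862 CPM; both cover counting error only.

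Genes that mark the descendants of stem cells were low or not read more often than human genes at large. Of 67 such genes in 6 lists, 18 (26.9%) had no count in any cell, against 13.7% of all human genes, and 29 had counts in 1 to 9 cells. Defining genes of endoderm (SOX17, FOXA1, GATA4, HHEX, TTR), mesoderm (T, MESP1, GSC, HAND1), neural and crest cells (SOX10, NEUROD1), the trophoblast and amnion list (TFAP2B, TP63), fibroblasts (COL3A1, DCN, LUM) and blood (PTPRC) had no count in any of the 92 cells. The summed level of the 12 endoderm genes ran from 0 to 35.8 CPM per cell with a median of 3.43, and AFP, a fetal liver protein, gave 4.37 of their 5.66 CPM over all cells (60 cells). The 12 trophoblast and amnion genes had a median of 4.26 CPM per cell, and GCM1, a factor of the placenta, gave 3.50 of their 8.001 CPM over all cells. Of the 67 genes, 9 (13.4%) reached 10 CPM, against 44% of all human genes. KDR, a VEGF receptor of mesoderm and vessels, was at 43.5 CPM with a count in 92 cells and a range of 0.486 to 244 CPM (0.846 to 244 without the 5 cells). TUBB3, a tubulin of neurons, was at 43 CPM (92 cells), and NES, an intermediate filament of neural progenitors, at 24.1 CPM (92 cells). MAP2, a microtubule protein of neurons, was at 22.9 CPM (81 cells) and DCX, of migrating neurons, at 18.9 CPM (89 cells). FBLN1, a matrix protein, was at 36.4 CPM (92 cells), COL1A2 at 28.7 CPM (88 cells) and TEK, the angiopoietin receptor, at 18.9 CPM (78 cells). PECAM1, an adhesion protein of vessels, was at 11.6 CPM in all 92 cells and is, like ARGFX, one of the genes with mostly non-whole counts. TUBB3 and DCX also had non-whole counts, each in 98.9% of the cells with a count, against 15.2% for NES and 16.0% for MAP2. The levels of TUBB3 and DCX are uncertain to that extent. ISL1, a factor of amnion and heart mesoderm, had counts in 13 cells, and its highest cell was at 108 CPM.

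The signal pathways that hold the primed state were read unevenly from cell to cell. Of the Nodal ligands, NODAL itself was at 16.6 CPM with a count in 57 of 92 cells (lowest 0, median 0.388, highest 179 CPM), and GDF3 was at 22.02 CPM in 83 cells. The coreceptor TDGF1 and the receptors ACVR2A (125 CPM) and ACVR2B (194 CPM) were read in every cell, while the type I receptor gene ACVR1B was at 3.23 CPM in 54 cells. SMAD2 (369.5 CPM) and SMAD4 (92.2 CPM), which carry the signal to the nucleus, were read in all cells, and SMAD3 (14.7 CPM) in 66. The targets and feedback inhibitors LEFTY1 (2.45 CPM) and LEFTY2 (7.51 CPM) had counts in 36 and 34 cells, and the LEFTY2 level of the highest cell was 275.5 CPM. SKIL, a SMAD corepressor, was at 2418 CPM in every cell. In the FGF pathway, FGF2 (104.5 CPM) and its receptor FGFR1 (175 CPM) were read in every cell and FGF4 in none. The feedback gene DUSP6, a phosphatase of ERK, was at 622 CPM (56.5 to 1462, with a lowest of 85.2 without the 5 cells). SPRY4, an inhibitor of the pathway, was at 62.3 CPM (1.48 to 862, and 2.84 to 366 without the 5 cells). Among WNT genes, the secreted inhibitors SFRP1 (547 CPM) and SFRP2 (298 CPM) were high, and the WNT targets SP5 and DKK1 had no count in any cell.

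By level per transcript length, the 15 highest nuclear genes outside the ribosomal protein list had a range of roles. ACTB, the cytoplasmic actin, stood at 12246 per 1000000, EEF1A1, the elongation factor that brings tRNA to the ribosome, at 8554, and the glycolytic enzymes ENO1, GAPDH and LDHB at 8007, 5402 and 5301. CD24, a surface protein that is high in these cells, was at 5098, and the nucleolar chaperone NPM1 at 5036. PPP1CB, TUBA1B, SRP9, HSPD1, HNRNPA1 and HSPA8 followed between 3790 and 4960. MTRNR2L2 and MTRNR2L8 were also among the 15. They are nuclear near-copies of mitochondrial ribosomal RNA, so their counts cannot be told apart from mitochondrial reads. MTRNR2L2 gave 63926 per 1000000 through a very short annotated transcript. Expression was broad: the 100 highest genes took 25.7% of the counts, and 605 genes made up 50% of them.

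Of 19097 human genes, 16485 had a count in some H1 cell, 5389 (28.2%) had one in every cell, 8475 in 10 to 91 cells and 2621 in 1 to 9 cells. Of the 8403 genes at 10 CPM or more, 60.2% were read in every cell. The share of cells followed the level closely. The median gene under 0.1 CPM was read in 2 cells, between 0.1 and 1 CPM in 11, between 1 and 10 CPM in 55, and between 10 and 50 CPM in 90 cells. At 50 CPM or more, 3474 of 3850 genes were read in all 92 cells, and the gene read in the fewest was NPIPL3, with 78 cells. NPIPL3 belongs to a family of near-identical copies, so its counts are uncertain. Others among the 10 least often read at that level were XRRA1 (84 cells), KLHL4, MYD88 and PKIB (86 each), and ALG11, ATG4C, CCNE2 and FASTKD3 (87 each). MYD88, the adaptor of Toll-like receptors, shows the pattern: its lowest cell was at 0, its median at 16.2 and its highest at 791 CPM. CCNE2, cyclin E2 of the step into S phase, had 0, 37.2 and 339 CPM. When each cell was thinned to 1136300 counts, the total of the smallest cell, the median fell to 10407 genes. At 96 libraries per lane it was 10002 genes, from a median of 852336 counts. Genes read in every H1 cell overlapped those read in every H9 cell by 4464, which is 82.8% of the H1 set and 91.7% of the 4868 in H9.

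**Figure D2:**
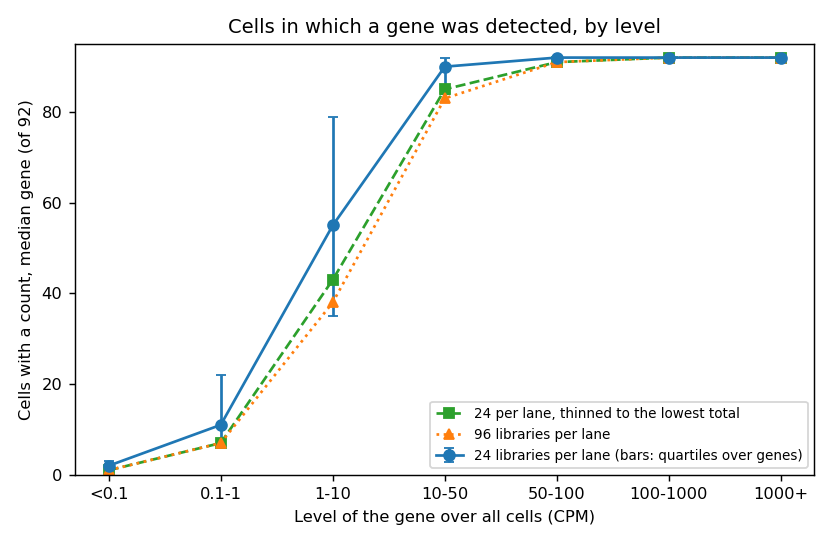
Number of the 92 H1 cells with a count for the median gene, against the gene's level over all cells in CPM; bars are quartiles over genes. Circles are 24 libraries per lane, squares the same cells thinned to the lowest total and triangles 96 libraries per lane; the median gene reaches 90 cells between 10 and 50 CPM at 24 per lane.

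The cell-to-cell spread of a gene was taken as the squared coefficient of variation of its CPM over cells, set against the genes nearest in level and written as a log2 ratio. A value of 1 is therefore a spread 2-fold above genes of like level. Of 8403 genes at 10 CPM or more, 803 (9.56%) lay 2-fold or more above and 1385 (16.5%) 2-fold or more below. The widest spread belonged to the mitochondrially encoded genes, 12 of 13 of which lay 2-fold or more above, with a median of 2.55. MT-CYB, a subunit of complex III, led with 3.05 and ran from 199 CPM in the lowest cell through 5792 in the median to 41362 in the highest. Without the 5 cells named above, 9 of the 13 lay 2-fold or more above with a median of 1.17, and MT-CYB had 1.51 and ran from 1134 to 15029 CPM. Outside the mitochondrial families, AASS, which starts lysine breakdown, led with 2.74. Its lowest, median and highest cells were at 62.9, 1369 and 7213 CPM, and without the 5 cells its highest was 4173 CPM and its spread 2.63. ZNF138, a zinc-finger gene with near copies, had 2.69 and ran from 0 through 27.1 to 1165 CPM. The wide spread of ZNF138 rested on the 5 cells, without which it was 0.79 with a highest cell of 326 CPM.

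Among signalling, stress and cell cycle genes, the members of wide spread were counted beside the 9.56% of all genes. Most of these counts are small, and 2 of 11, 0 of 10 and 3 of 47 lie near that share. The Nodal list had a median spread of 0.71 with 3 of 11 genes 2-fold or more above, the FGF list 0.62 with 2 of 11, the p53 targets 0.65 with 4 of 8 and the hypoxia targets 0.63 with 2 of 11. Without the 5 cells, 2 of 8 p53 targets lay above and their median was 0.31. The WNT list had a median of -0.04 with 0 of 10 above and 2 below, the 3 BMP targets -0.12, and the S-phase genes 0.12 with 3 of 47 above. SPRY4 in the FGF list had 1.99, SMAD3 in the Nodal list 1.79, and PDK1, a hypoxia target that restrains pyruvate oxidation in the mitochondria, 2.26. Without the 5 cells SPRY4 had 0.50 and PDK1 1.25. Of 59 G2/M genes, 9 lay 2-fold or more above and 1 below, with a median of 0.46. TOP2A, the topoisomerase that untangles sister chromatids, had 2.09 (40.99, 388 and 2200 CPM in the lowest, median and highest cells). UBE2C, which works with the anaphase-promoting complex, had 1.70 (3.94, 99.2 and 730 CPM, with a lowest of 10.6 without the 5 cells). Of the 4 histone genes at 10 CPM or more, HIST1H4C, a histone H4 gene, had 1.63 (19.7, 405 and 1105 CPM), whereas HIST1H1B had -1.68 and HIST1H2BD -1.45, and the median was -0.65.

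Genes of the ribosome and of the respiratory chain were more often even from cell to cell than the 16.5% of all genes. Of 49 ribosomal protein genes, 33 lay 2-fold or more below genes of like level and none above, with a median of -1.33. Only 1 of the 49 had whole counts in at least 50% of cells, and the part of shared reads in this evenness was not tested. Of 29 nuclear genes of the respiratory chain, 14 lay below and none above (median -0.89). Of 31 proteasome genes 5 lay below, a share near that of all genes, with a median of -0.50. The 10 lowest genes at 50 CPM or more were SEC61G (-2.97), RPS21 (-2.95), UQCRQ (-2.89), ATP5I, LSM7, ATP5E, COX8A, RPS29, COX7B and FAU (-2.71). RPS21 ranged from 84.7 to 205 CPM with a median of 122.5. All 10 code for small proteins of the translocon, ribosome, respiratory chain, ATP synthase or RNA processing. Of the 5 markers, POU5F1 had -2.15 and SOX2 -1.65, less even than these 10 but 2-fold or more below genes of like level. NANOG (0.00) and TDGF1 (0.00) lay at the level of their neighbours and DNMT3B above (0.61, and 0.03 without the 5 cells). POU5F1 counts were not whole in 100% of cells, and the part of shared reads in its low spread was not tested.

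**Figure D3:**
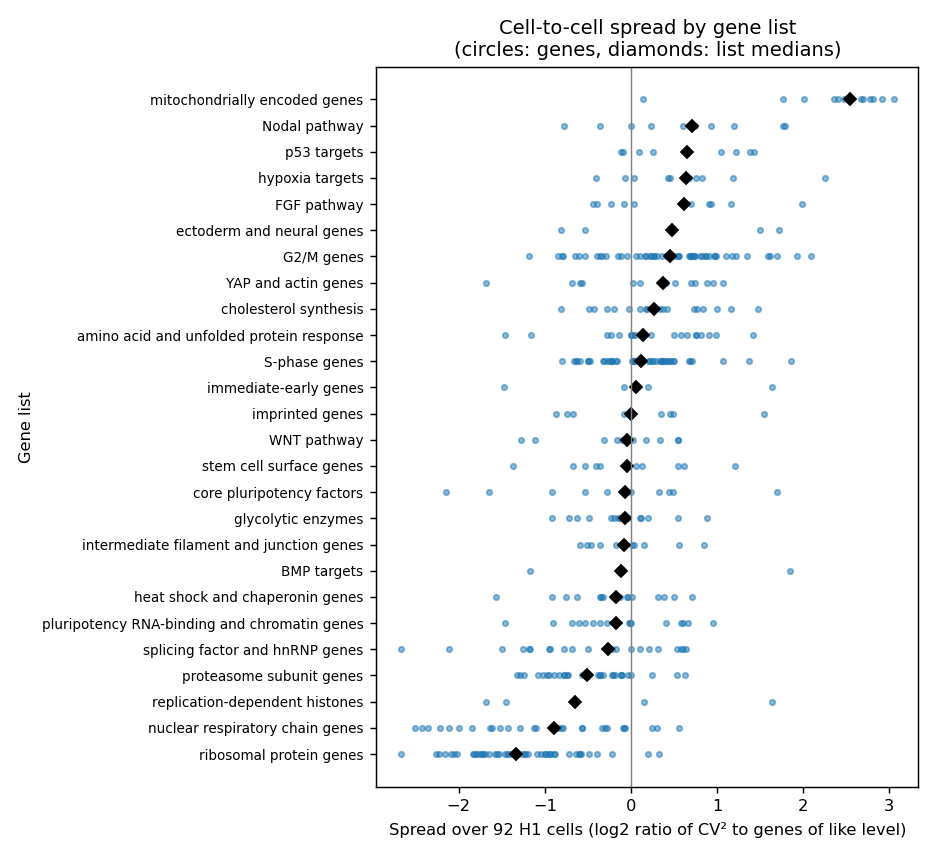
Cell-to-cell spread of the genes of each list over 92 H1 cells, as the log2 ratio of CV² to genes of like level; circles are genes, diamonds list medians, and lists with fewer than 3 genes at 10 CPM are not drawn. Of the lists drawn, mitochondrially encoded genes lie at the top (median 2.55) and ribosomal protein genes at the bottom (median -1.33).

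Genes that rise and fall together were sought with Spearman's rho of CPM over the 92 cells, among 8390 genes at 10 CPM or more with a count in at least 46 cells. All cells share a chip, a chemistry and the division by each cell's total, so rho describes these cells and carries no p. Of 35191855 pairs, 60203 (0.171%) had a rho of 0.5 or more, around a median of 0.03. A member of a list was set against the mean of the other members, and the share of all genes outside the list that reached 0.3 with the list's mean is given as the background.

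Genes of cell division moved together. Of 59 G2/M genes, 39 had a rho of 0.3 or more with the rest of their list, where 2.08% of other genes did. CKS2, a small partner of cyclin-dependent kinases, led with 0.68, followed by CCNB1 (cyclin B1) with 0.66, TPX2, which activates Aurora A at the spindle, with 0.62 and KIF23, a motor of the cleavage furrow, with 0.60. The values at 96 libraries per lane were 0.67, 0.63, 0.64 and 0.58, and those in H9 cells 0.60, 0.63, 0.50 and 0.44. CCNB1 ranged from 20.9 CPM in the lowest cell (159 without the 5 cells) through 476 to 1114 in the highest. The closest pairs were UBE2C with KIF23 (0.65, and 0.48 in H9), CCNB1 with CKS2 (0.64, and 0.35 in H9) and UBE2C with TOP2A (0.63, and 0.62 in H9). The median over all pairs of the list was 0.15 in H1, 0.15 at 96 per lane, 0.15 in H9 and 0.14 after adjustment for genes per cell. Outside the list, KPNA2, a nuclear import receptor, was the closest gene (0.64), and RAD17, a checkpoint protein, followed (0.55).

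Genes of DNA replication formed a looser set, and their mean ran against that of G2/M. Of 47 S-phase genes, 25 had a rho of 0.3 or more with the rest (18 without the 5 cells), against 2.66% of other genes. RRM2, the small subunit of ribonucleotide reductase, had 0.53, DTL, which marks replication proteins for breakdown, 0.50, and FEN1, the flap endonuclease, 0.48. In H9 these were 0.44, 0.58 and 0.16, FEN1 being the one that was lower there by the most. The closest genes outside the list were WBSCR16 (0.49), the chaperone HSP90AB1 (0.47), DERL2 (0.47), of protein export from the endoplasmic reticulum, and the histone variant gene H3F3B (0.44), followed by TK1, thymidine kinase (0.43). The means of the S-phase and G2/M lists had a rho of -0.37 (-0.35 at 96 per lane, -0.33 in H9 and -0.56 without the 5 cells). The 4 histone genes that passed the minimum had the highest median over pairs of the cell cycle lists, 0.55 (4 of 4 at 0.3 or more, where 1.85% of other genes did): HIST1H1B, a linker histone, with HIST1H4C had 0.79, and 0.73 in H9. Their mean had a rho of 0.42 with the S-phase mean (0.12 in H9) and -0.36 with G2/M (-0.24 in H9, -0.49 without the 5 cells). MKI67, the proliferation antigen, stood lowest of all genes against the histones, at -0.53. Replication-dependent histone messages lack a poly(A) tail while the cDNA method primes on one, and 10 of the 14 listed histone genes were under 10 CPM. The S-phase mean also fell with the total count (rho -0.35) and with the spike-in share (-0.37, and -0.25 without the 5 cells), whose part was not tested; the G2/M mean had 0.02 and -0.24 with them.

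**Figure D4:**
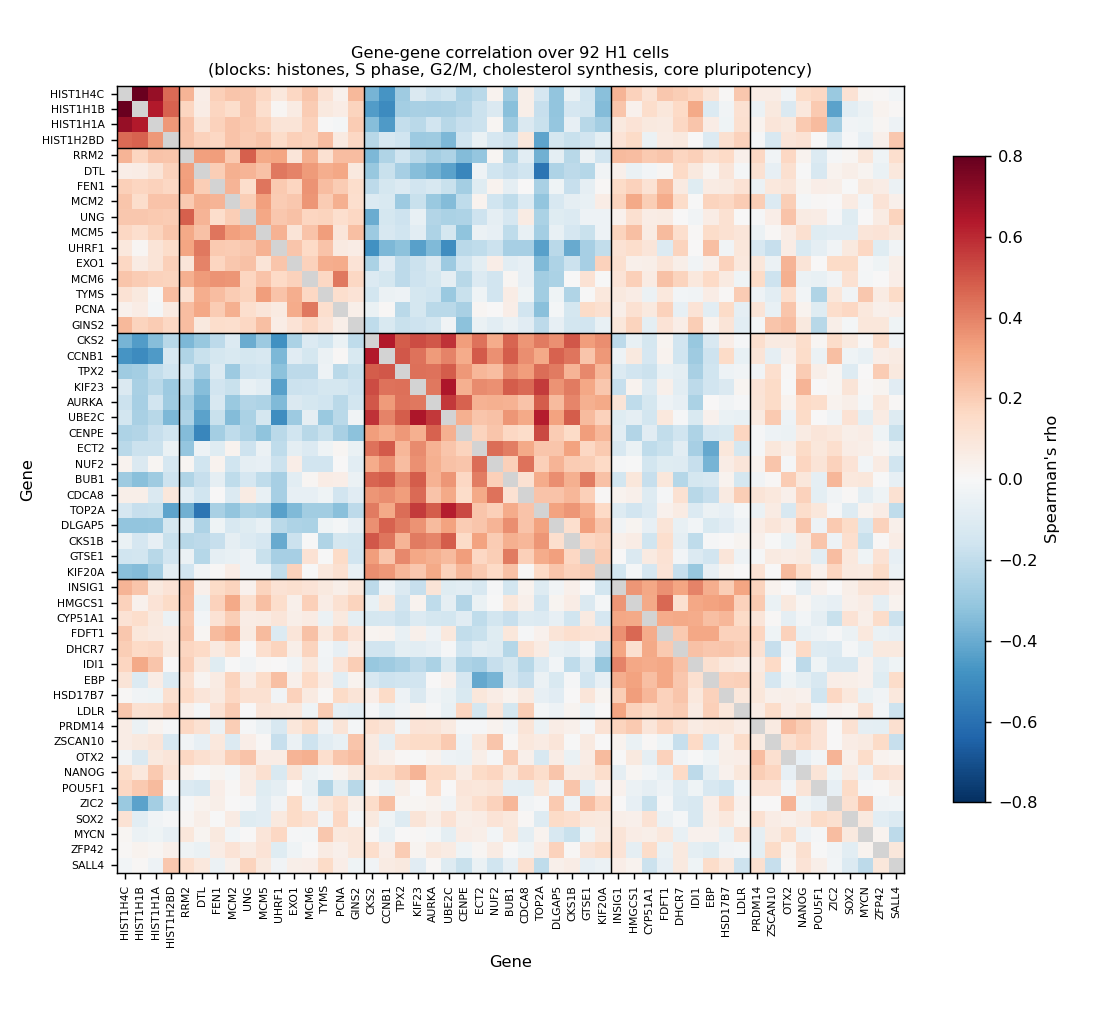
Spearman's rho over 92 H1 cells between leading genes of 5 lists (histones, S phase, G2/M, cholesterol synthesis and core pluripotency factors, ordered by rho with the rest of their list); red is positive, blue negative and the diagonal grey. The G2/M and histone blocks are red, the blocks between G2/M and S phase are blue, and the core pluripotency block is pale, its highest pair being ZIC2 with OTX2 at 0.27.

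Promoters of the G2/M list were read for the elements known to time such genes, the CHR (cell cycle genes homology region) and the CCAAT box. All listed genes with a promoter at hand were read, whether or not they moved with their list. RefSeq gave the 250 bases before to 50 bases after the start of 49 of the 60 listed genes, on GRCh38.p14. The letters TTTGAA on either strand were in 32 of 49 (65.3%) against 15.4% of all 27305 promoters, and the other CHR form TTCGAA in 4 of 49 (8.16%) against 1.45%. CCAAT was in 35 of 49 (71.4%) against 35.7% of all promoters. Of 35 S-phase promoters, the E2F core TTTGGCG was in 9 (25.7%) against 1.92%, and TTTCCCG in 10 (28.6%) against 4.34%. The sterol element TCACNCCAC was in 1 of 15 cholesterol promoters (6.67%) against 1.15%. Among the 34 G2/M promoters of genes at a rho of 0.3 or more with the rest, TTTGAA was in 24 (70.6%) and CCAAT in 26 (76.5%). Among 18 such S-phase promoters, TTTGGCG was in 4 (22.2%) and TTTCCCG in 6 (33.3%). The shares therefore describe the lists, and their link to the correlations was not tested. A match describes letters in a window and is not a binding site. The 250 bases before the start are shown, 5′ to 3′ on the gene's strand, for 3 of the 4 leading G2/M genes and for the S-phase gene DTL. Each sequence shown holds a match, and genes read without one are named after them. Capitals mark TTTGAA and CCAAT (or their reverse complements) in the first 3 and the E2F core in DTL. They lie at chr9:89310945-89311194 (+) for CKS2, chr15:69414099-69414348 (+) for KIF23, chr5:69166900-69167149 (+) for CCNB1 and chr1:212035498-212035747 (+) for DTL.
CKS2: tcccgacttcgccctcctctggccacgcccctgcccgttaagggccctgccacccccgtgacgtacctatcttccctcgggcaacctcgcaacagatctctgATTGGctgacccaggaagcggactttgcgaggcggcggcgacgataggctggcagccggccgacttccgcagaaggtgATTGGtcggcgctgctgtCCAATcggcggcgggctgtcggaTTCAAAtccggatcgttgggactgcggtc
KIF23: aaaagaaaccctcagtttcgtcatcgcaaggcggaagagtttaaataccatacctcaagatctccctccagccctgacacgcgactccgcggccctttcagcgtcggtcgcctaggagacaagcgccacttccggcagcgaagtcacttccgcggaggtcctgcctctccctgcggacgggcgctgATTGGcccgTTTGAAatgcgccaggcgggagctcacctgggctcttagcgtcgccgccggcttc
CCNB1: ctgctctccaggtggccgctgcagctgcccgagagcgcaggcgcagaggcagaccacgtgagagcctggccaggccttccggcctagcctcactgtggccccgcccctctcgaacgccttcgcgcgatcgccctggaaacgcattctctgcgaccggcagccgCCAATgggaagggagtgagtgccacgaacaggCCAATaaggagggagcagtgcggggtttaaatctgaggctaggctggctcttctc
DTL: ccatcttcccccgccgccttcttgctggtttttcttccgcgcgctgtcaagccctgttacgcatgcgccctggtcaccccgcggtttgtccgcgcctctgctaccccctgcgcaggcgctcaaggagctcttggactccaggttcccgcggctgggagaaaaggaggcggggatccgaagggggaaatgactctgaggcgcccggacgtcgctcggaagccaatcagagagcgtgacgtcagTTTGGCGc
CKS2 holds the CHR letters 29 bases before the start with CCAAT 52, 70 and 148 bases before it, and KIF23 holds them 55 and 64 bases before. CCNB1 holds CCAAT 55 and 87 bases before and neither CHR form. RRM2, which led the S-phase list, holds neither E2F form in this window, and FEN1 and MCM2 hold neither. CENPE of the G2/M list holds neither CHR form nor CCAAT in it.

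Genes of cholesterol synthesis moved together as well. Of 19 genes, 10 had a rho of 0.3 or more with the rest, where 0.968% of other genes did. INSIG1, which holds the sterol sensor in the endoplasmic reticulum, led with 0.60, and HMGCS1, CYP51A1 and FDFT1, enzymes of the route from acetyl units to sterols, had 0.52, 0.49 and 0.47. In H9 cells INSIG1, HMGCS1, CYP51A1 and FDFT1 had 0.36, 0.50, 0.27 and 0.36. DHCR7, the last enzyme, had 0.45 in H1 and 0.04 in H9. INSIG1 ran from 0 CPM in the lowest cell through a median of 25.4 to 174 CPM in the highest. The closest genes outside the list were SCD (0.57), a fatty acid desaturase under the same sterol-sensing factors, and MSMO1 (0.48), itself an enzyme of sterol synthesis, which the list held under its older symbol SC4MOL and so did not count as a member. The median over pairs was 0.17 in H1, 0.15 at 96 per lane, 0.09 in H9 and 0.17 without the 5 cells. The list's mean had a rho of -0.20 with the total count and -0.26 with the spike-in share.

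The mitochondrially encoded and ribosomal protein genes, with the histones, had the highest medians over pairs of all lists. All 13 mitochondrial genes passed 0.3 with the rest (4.75% of other genes did), and the median over their pairs was 0.72, 0.71 at 96 per lane, 0.79 in H9 and 0.68 without the 5 cells. Their mean followed the mitochondrial share of counts (rho 0.97), which their own counts make up. All 49 ribosomal protein genes passed (47 without the 5 cells, and 4.83% of other genes), with a median of 0.38, 0.46 in H9 and 0.63 by Pearson's r of log2(CPM + 1). RPS14 with RPS19, both of the small subunit, was their closest pair at 0.73. The ribosomal protein mean had a rho of 0.69 with the respiratory chain mean and 0.65 with the proteasome mean, and in H9 these were 0.67 and 0.58. The mitochondrial mean had -0.52 with the splicing factor mean (-0.38 in H9) and -0.28 with the ribosomal protein mean.

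Smaller programmes were seen among cytoskeletal, glycolytic, chaperone and amino acid genes. Of 15 YAP and actin genes, 7 passed 0.3 (2.38% of other genes), led by ACTG1 (0.53) and ACTB (0.51). ACTB and ACTG1 are near-identical in sequence, so their pair value of 0.74 is uncertain. The YAP targets CTGF and CYR61 had 0.19 and 0.21. Of 17 glycolytic enzymes, 7 passed (4.17% of other genes), led by GPI (0.57), GAPDH (0.56) and ENO1 (0.56), while the hypoxia-linked LDHA had 0.23 and PGK1 0.09. Counts of GPI, GAPDH and ENO1 were not whole in 100%, 100% and 97.8% of cells, so their values are uncertain to that extent. The glycolytic median over pairs was 0.12, and 0.06 without the 5 cells. Over the 6 glycolytic genes of mostly whole counts it was 0.07, beside 0.03 for all pairs of such genes. Of 16 heat shock and chaperonin genes, 6 passed (2.97% of other genes), with HSP90AB1 at 0.49 and the mitochondrial chaperonin HSPD1 at 0.45. Their median was 0.15, 0.09 without the 5 cells and 0.34 by Pearson's r. Counts of HSP90AB1 and HSPD1 were not whole in 98.9% and 97.8% of cells, and only 1 of the 16 genes had mostly whole counts. The part of shared reads in the glycolytic and chaperone values was not tested. Of 21 genes of the amino acid and unfolded protein responses, 4 passed (1.28% of other genes): PSAT1 (0.41) and PSPH (0.39) of serine synthesis, MTHFD2 (0.35) of the mitochondrial folate cycle and CHAC1 (0.35), which degrades glutathione.

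Members of the 2 pluripotency lists tracked the rest of their list no more often than other genes did. None of the 11 core factors tested reached 0.3 with the rest of the list, where 6.42% of other genes did. None of the 17 RNA-binding and chromatin genes did, where 1.73% of other genes did (1 of 17 without the 5 cells). For lists this small, a count of none lies near those shares. The 5 markers were nearly unrelated to each other: POU5F1 with SOX2 had 0.15, POU5F1 with NANOG 0.10 and NANOG with SOX2 0.07. NANOG with DNMT3B was highest at 0.34 and was 0.34 again at 96 per lane and 0.27 without the 5 cells, yet in H9 it was -0.00. NANOG also had a rho of 0.46 with the mean of the RNA-binding and chromatin list, of which DNMT3B is a member. The single genes closest to each marker reached only 0.42. They were MIDN (0.40) for POU5F1, METTL22 (0.42) for NANOG, ZCCHC3 (0.42) for SOX2, PEBP1 (0.42) for DNMT3B and LYRM4 (0.37) for TDGF1. In H9 their values were -0.08, -0.18, 0.09, 0.31 and 0.05, so PEBP1 alone kept a rho above 0.3. The Nodal, FGF and WNT lists had medians of 0.01, 0.01 and -0.00, beside 0.03 for all pairs. Without the 5 cells these medians were 0.01, 0.01 and -0.00, beside 0.01 for all pairs. None of the 11 Nodal and none of the 11 FGF genes reached 0.3 with the rest of its list, where 2.86% and 1.69% of other genes did. Here too a count of none lies near those shares. Of 10 WNT genes 2 did, where 0.394% of other genes did: the receptor LGR4 (0.35) and the inhibitor SFRP1 (0.32), which had 0.08 and -0.05 in H9. Without the 5 cells none of the 10 reached 0.3. The mean of the core factors had a rho of 0.58 with the mean of the hypoxia targets, 0.53 without the 5 cells and 0.01 in H9. The hypoxia targets did not move as a set either. Their median over pairs was 0.03 (-0.01 without the 5 cells), and none of the 11 reached 0.3 with the rest, where 2.98% of other genes did. The core mean also had 0.55 with genes per cell and -0.59 with the spike-in share, and the hypoxia mean 0.35 and -0.43. The part of these in the pair was not tested.

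**Figure D5:**
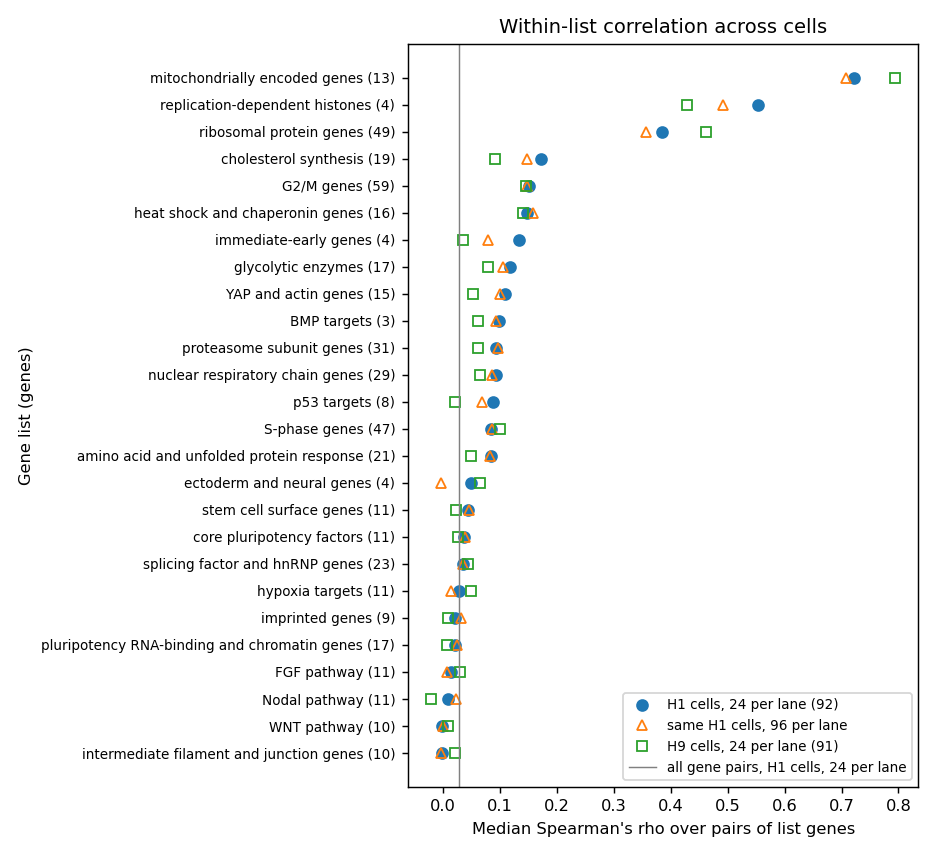
Median Spearman's rho over the pairs of each gene list in the 92 H1 cells at 24 libraries per lane (circles), the same cells at 96 per lane (triangles) and 91 H9 cells (squares); the line is the median over all gene pairs in H1. The mitochondrial (0.72), histone (0.55) and ribosomal protein (0.38) lists stand far from the line, and the core pluripotency list (0.04) lies on it.

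Most strong pairs belonged to none of these programmes. A set of 218 genes, each with a rho of 0.6 or more to at least 100 others, held 38.5% of all pairs at 0.5 or more. They included genes of distant tissues, such as MEFV of neutrophils, LYZ (lysozyme), CCL5 of T cells, IAPP of pancreatic islets, CRX of the retina and ARGFX. Their levels were modest, with a median of 20.9 CPM (10.0 to 210), and they summed to 0.626% of counts. Yet 215 of them were read in every H1 cell and 213 in every H9 cell, and their spread was low (median -2.62). MEFV, for example, had 3.35 CPM in the lowest cell, 26.9 in the median and 72.5 in the highest. The median rho among the 218 was 0.66, 0.49 at 96 per lane, 0.65 in H9 and 0.65 without the 5 cells. In all 218 genes the expected count was not whole in over 90% of cells, as it was in 33.98% of the 8390 genes. Of the 201 with a GENCODE transcript, 89.1% held 25-letter words found in over 20 genes, against 39.3% of all genes. Their summed share had a rho of 0.49 with genes per cell and 0.52 with the mitochondrial share. The part of shared sequence in their common movement was not tested, and their levels are uncertain.

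Among the 4304 genes with whole counts in at least 50% of cells, strong pairs were few. They numbered 117 of 9260056 (0.00126%), of which 44 were again at 0.5 or more at 96 per lane and 4 in H9. Over all 8390 genes, 30.4% of the H1 pairs were found again at 96 per lane and 66.6% in H9, while 93.03% of the pairs at 96 per lane and 59.8% of those in H9 were also in H1. Among the highest pairs of all were BOLA2 with BOLA2B and LUZP6 with MTPN, at 1.00, and SNRPN with SNURF, at 0.99. These are copies or share a transcript, so their counts cannot be told apart. Of the pairs of mostly whole genes, EIF4EBP1, a translation repressor, with MRPL12 of the mitochondrial ribosome was highest (0.71, 0.67 at 96 per lane, 0.21 in H9), followed by KIF23 with UBE2C (0.65). When genes were joined at 0.6 or more, 606 fell into 1 group, which held all 13 mitochondrial genes and 28 of the listed ribosomal protein genes. The other groups of 3 or more genes were ACTB, ACTG1, ENO1 and GPI; ANP32E, HNRNPH1, SOX11 and TRA2A; KIF23, KPNA2, TOP2A and UBE2C; ATP5I, NDUFS5 and ROMO1; and HIST1H1A, HIST1H1B and HIST1H4C.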

How the data were processed

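Single-cell RNA-seq libraries of H1 cells were analysed, with H9 cells beside them. The expected counts per gene were made by the authors with CASAVA 1.8.2, Bowtie 0.12.8 and RSEM 1.2.3 on hg19, per the submitters' processing notes; the annotation is not given in the sources used here. RSEM divides a read that matches several genes among them, so counts need not be whole. They were used as deposited (rounded for detection, intervals and thinning), without spike-ins.

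CPM is counts per 1000000 human counts, summed over cells for a gene's level. Lengths are medians of GENCODE 29 coding transcripts. List means are of z-scored log2(CPM + 1). Functions were tested on simulated data. Named genes were the markers, the 15 highest per length, the 10 at each end of spread, the 10 in fewest cells at 50 CPM, up to 5 at each end of a list, up to 5 partners of a marker and the 15 highest pairs; others were named after their values were seen. A few genes that the rule names are counted but not reported here by name.

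The members, the 32 lists and the 5 cells were chosen with earlier results of these data known. The motifs, the 218 joined genes, the whole-count split and the repeated words were chosen after the data were seen; E2F letters were shortened by 1, and motifs for hypoxia and amino acid genes dropped, before any was run. Intervals cover counting error only. Python 3.11.15, numpy 2.4.6, pandas 2.3.3 and scipy 1.17.1 were used.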

Additional observations from a re-analysis of the deposited data

Results flagged for a closer look

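The highest spike-in share of an H1 cell was 19.7%, read from the spike-in sequences that enter none of the gene levels above. It drew attention because these sequences lie outside the gene measurement and the cell stands far above the median of 3.74%; 4 further cells were above 10%. Those 5 cells held fewer genes (9608 to 10073) than the median of 11216 in the other 87.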

How the results depend on the processing

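No paired analysis was possible because the H1 cells are 1 sample and no result comes from a test. The median of genes per cell was 10002 at 96 libraries per lane, 9652 when detection needed 5 counts and 10407 in thinned cells. Genes read in every cell numbered 3179 at 96 per lane and 3358 with 5 counts. The number of genes with spread 2-fold or more above their neighbours was 1257 with median-of-ratios size factors, 1604 with a minimum of 1 CPM and 520 without genes of mostly non-whole counts. Pairs at 0.5 or more numbered 19850 at 96 per lane, 29690 with median-of-ratios size factors, 187430 by Pearson's r of log2(CPM + 1), 38102 after adjustment for genes per cell and 117 without genes of mostly non-whole counts, so this count is set by the method more than any other value here. Fewer reads, fewer genes or a wider set of genes enter these counts by construction; the cause of the moves with size factors, Pearson's r and adjustment was not tested. Gene levels stayed within tolerance in all 80 alternatives, list medians of rho in 166 and of spread in 146, but that tolerance was 1 SD over cells, pairs or genes, which is wide. Outside it lay 7 rho medians, all under Pearson's r: 0.89 for mitochondrially encoded, 0.63 for ribosomal protein, 0.37 for proteasome, 0.34 for heat shock, 0.26 for nuclear respiratory chain and 0.17 for splicing factor genes, and 0.20 for BMP targets. The spread medians outside it were 1.17 for mitochondrially encoded genes without the 5 cells and -2.12 for splicing factor genes without genes of mostly non-whole counts. Depth limits the reading of genes under 10 CPM, where the median gene missed cells.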

Other observations

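Imprinted genes, of which one parental copy is silent, were read unevenly. MEST was at 481 CPM with counts in all 92 cells (12.9 to 1152 CPM, with a lowest of 128 without the 5 cells of high spike-in share), and PEG3 at 98.9 CPM in 91 cells, with a spread of 1.54. PEG10 was at 26.1 CPM (92 cells) and GRB10 at 45.2 (90 cells), whereas IGF2 was at 0.888 CPM (12 cells) and DLK1 at 0.155 (3 cells). PEG3 had no count in any H9 cell.

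Among p53 targets, MDM2 was at 333 CPM and CCNG1 at 582 CPM with counts in all cells, while CDKN1A, the p21 inhibitor of the cell cycle, was at 0.916 CPM in 13 cells and GDF15 at 0.129 CPM in 6. Of the immediate-early genes, EGR1 was at 58.1 CPM (91 cells, highest cell 646 CPM, and 299 without the 5 cells) and FOS at 35.3 CPM (90 cells), and JUN was at 1.42 CPM (29 cells). VIM, the intermediate filament of mesenchymal cells, was at 21.6 CPM in 83 cells, and KRT18, of simple epithelia, at 519 CPM in all 92.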
